A study of Mus musculus with 2 samples.

Results

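Skeletal muscle takes up fatty acids through a short chain of proteins, and 9 of their genes are described here. They are Lpl, Gpihbp1, Angptl4, Cd36, Vldlr, Slc27a1, Acsl1, Fabp3 and Fabp4, and they were chosen by gene symbol. The platform annotation names 22 probe sets for 8 of them, of 45101 probe sets on the array; it pairs none with Acsl1, the long-chain acyl-CoA synthetase of muscle, which was not analysed here. A probe set consists of several short oligonucleotides designed against the same transcript. RNA came from the skeletal muscle of C57BL6 females at 4 months of age. One pool was from non-transgenic control mice and the other from RXRγ mice (line 4-3), which overexpress the nuclear receptor RXRγ in skeletal muscle from the human α-actin promoter. All mice had free access to chow. Animals were pooled within each genotype before hybridization, 5 per pool in the series design and 3 in the extraction protocol, and each pool was hybridized to 1 Affymetrix MG430 array. Each genotype thus has a single array, with no replicate and no test between the genotypes, so precision is limited by how few arrays there are.

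Lipoprotein lipase, the product of Lpl, releases fatty acids from circulating triglyceride at the capillary wall, where Gpihbp1 anchors it and Angptl4 inhibits it. The receptors Vldlr and Cd36 take up lipoprotein and fatty acid. Slc27a1 and Acsl1 couple fatty acids to coenzyme A, and Fabp3 and Fabp4 carry them inside the cell. Several of these genes are known targets of PPARs, nuclear receptors that bind DNA together with an RXR.

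The deposited signals are linear intensities, and their trimmed mean was the same on both arrays. For every probe set, the signal in RXRγ mice was divided by that in control mice and the log2 taken. The log2 ratios of probe sets that exceeded 250 on at least 1 array were averaged per gene, which gave values for 3780 genes. Mean signals of the same probe sets are given beside them, and the ratio of these means can differ from the averaged log2 ratio. A difference of at least 0.4 on the log2 scale was called higher or lower. A signal under 150 was taken as too low for a fold, so that such a difference is given as a lower bound. Rxrg, which encodes RXRγ, gave 9172.1 array units in RXRγ mice against 334.5 in control mice. All 10 skeletal muscle markers listed, among them Acta1 and Ckm, were above 150 on both arrays. Of these, 2 were called lower, Ckm (log2 ratio -0.75) and Ttn (-0.63), and 0 higher. The probe sets of Ckm ranged from -1.39 to -0.11 and those of Ttn from -1.23 to -0.12. By the brightest probe set, 0 of the 10 were lower. The median log2 ratio of the 10 was -0.11. Among the 3780 genes, 16.8% were called higher and 20.1% lower, and the median log2 ratio was -0.04.

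Of the 8 genes with a probe set, 6 reached a signal of 250, and Gpihbp1 and Angptl4 stayed just under it. None of the 6 was higher in RXRγ mice by the threshold, 2 were lower (Vldlr and Slc27a1), and 4 (Lpl, Cd36, Fabp3 and Fabp4) lay within 0.4. That is 33.3% lower, beside 20.1% of all genes, and with 6 genes the share says nothing particular about the group. Their median log2 ratio was -0.02, beside -0.04 for all genes. The change was thus unevenly spread: the lipoprotein receptor and the fatty acid transport protein had log2 ratios of -1.21 and -1.03, and the other 4 genes ranged from -0.22 to 0.24.

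**Figure D1:**
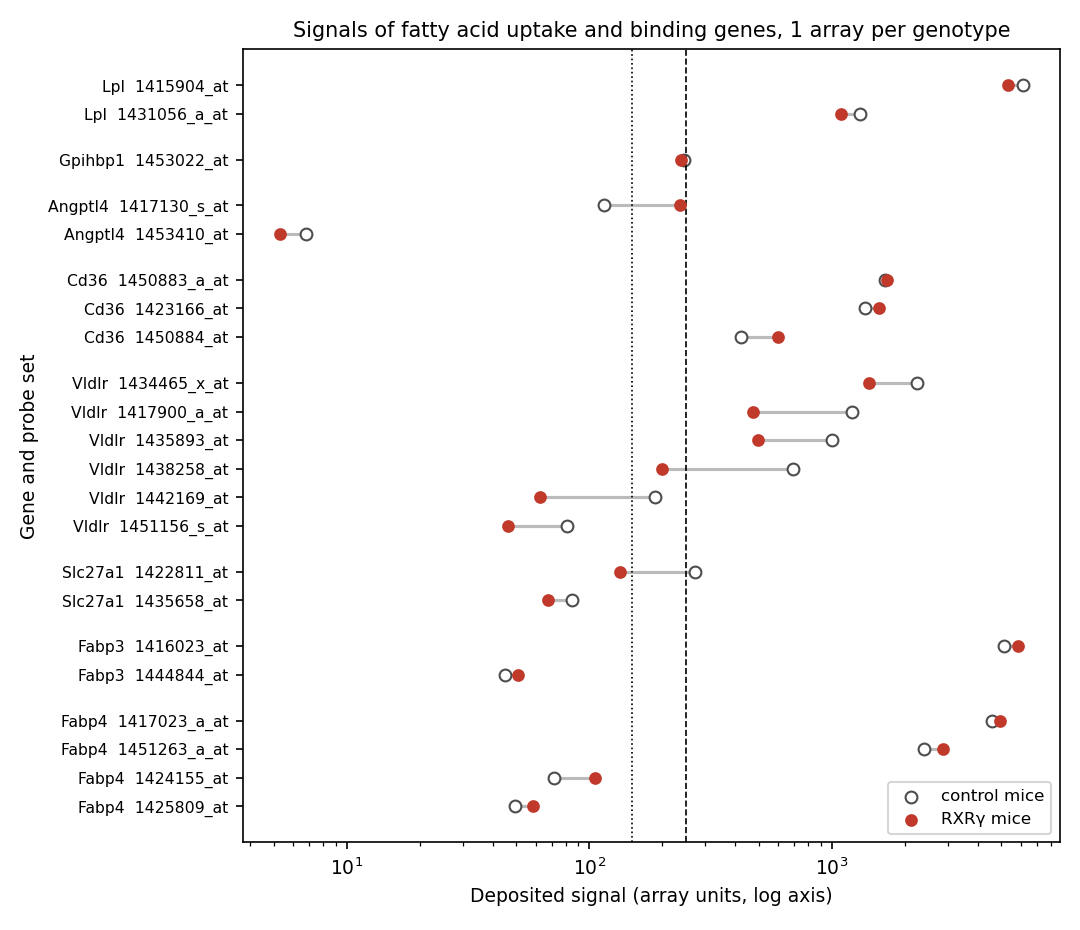
Each of the 22 probe sets by its signal in array units (horizontal log axis), open circles for the control array and filled circles for the RXRγ array. The dotted line marks 150 and the dashed line 250; all 6 probe sets of Vldlr lie further left in RXRγ mice, while above 250 the circles of Lpl, Fabp3 and Fabp4 lie close together.

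Vldlr, the very low density lipoprotein receptor, binds triglyceride-rich lipoproteins at the surface of muscle, heart and fat cells. Averaged over the 4 probe sets above 250, its signal was 645.6 in RXRγ mice against 1288.5 in controls. Its log2 ratio of -1.21, a 2.31-fold difference, is the mean of the probe sets' log2 ratios. It is not the ratio of these mean signals, which is smaller. Only 102 of the 3780 genes (2.7%) had a log2 ratio as low. The brightest probe set, 1434465_x_at, gave 1415.9 in RXRγ mice against 2252.1 in controls, the smallest difference of the 4 (log2 ratio -0.67). Names ending in _x_at mark probe sets with oligonucleotides that also match other sequences. For 1417900_a_at the signals were 470.9 and 1210.9, a log2 ratio of -1.36. For 1435893_at they were 496.0 and 1001.7 (log2 ratio -1.01).

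The largest difference was that of 1438258_at, at 199.7 in RXRγ mice against 689.4 in controls (log2 ratio -1.79). The remaining probe sets did not reach 250, and they too were dimmer in RXRγ mice. They were 1442169_at, with 62.4 against 186.2, and 1451156_s_at, with 46.3 against 80.9. The first is too low in RXRγ mice for a fold, and the second is under 150 on both arrays. All 6 probe sets of Vldlr therefore went the same way, by unequal amounts. Among the 112 genes with at least 4 probe sets above 250, the 13 in which all of them were lower by 0.4 make up 11.6%, and Vldlr is one of the 13. The log2 ratios of its probe sets spanned 1.12, and 10 of 1213 genes with several probe sets (0.824%) spanned as much. Its probe sets read the same 2 pools, and they are not replicates of the genotype. Leaving out the _x_at and _s_at probe sets gave a log2 ratio of -1.39. From the brightest probe set alone it was -0.67. RefSeq places a long non-coding RNA, Gm35438, over the Vldlr gene, and which probe sets could also read it was not examined.

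Slc27a1 encodes fatty acid transport protein 1, which is found at the plasma membrane of muscle and fat cells and has acyl-CoA synthetase activity. Its probe set 1422811_at gave 133.4 in RXRγ mice against 273.2 in controls, close to the filter of 250. Since 133.4 is under 150, the decrease is given as at least 1.82-fold, and the log2 ratio from the signals as deposited was -1.03. As deposited, a log2 ratio as low was found in 143 of 3780 genes (3.78%), a rank that rests on this signal under 150. With a floor of 150 the log2 ratio was -0.86, and with no filter on the signal it was -0.68. The other probe set, 1435658_at, was under 150 on both arrays (67.8 and 84.6) and allows no fold. The call thus rests on 1 dim probe set. It was lost, because no probe set was left, when a signal above 500 on the brighter array or above 250 on both was required.

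For Lpl the mean was 3216.8 in RXRγ mice against 3706.7 in controls, a log2 ratio of -0.22 that was under the threshold. For 1415904_at the signals were 5341.0 and 6111.1, and for 1431056_a_at they were 1092.7 and 1302.3. The log2 ratios of these probe sets, -0.19 and -0.25, differed by 0.06, less than the median span of 0.2 in the 1213 genes with several probe sets. Gpihbp1, the protein of capillary endothelial cells that carries lipoprotein lipase to the vessel lumen, had a single probe set, 1453022_at, just under the filter. Its signals were nearly equal, 239.6 in RXRγ mice and 246.5 in control mice (log2 ratio -0.04).

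Angptl4, a secreted inhibitor of lipoprotein lipase, also stayed under the filter. Its probe set 1417130_s_at gave 236.5 in RXRγ mice against 115.3 in controls, where it was under 150, so that it was at least 1.58-fold higher. The other, 1453410_at, was far under 150 on both arrays (5.3 and 6.8). When the filter was lowered from 250 to 150, Angptl4 was called higher (log2 ratio 1.04), as were 18.3% of the 5359 genes that then passed. It was the only one of the 8 genes called higher, and only under that filter.

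Cd36, the fatty acid translocase, averaged 1284.1 in RXRγ mice against 1149.9 in controls, with a log2 ratio of 0.24. Its 3 probe sets were all brighter in RXRγ mice, but by different amounts. For 1450883_a_at the signals were 1686.6 and 1656.8 (log2 ratio 0.03), and for 1423166_at they were 1566.9 and 1373.1 (log2 ratio 0.19). The dimmest, 1450884_at, was the only one past 0.4, at 598.8 in RXRγ mice against 419.8 in controls (log2 ratio 0.51). The probe sets spanned 0.49, as widely as those of 164 of the 1213 genes (13.5%), so that which of them is read decides the size for Cd36.

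Fabp3, the fatty acid binding protein of heart and skeletal muscle, gave 5874.0 in RXRγ mice against 5106.5 in controls at 1416023_at (log2 ratio 0.20). Its other probe set, 1444844_at, was far under 150 (51.0 and 45.0). Fabp4 encodes the adipocyte-type binding protein, which is also made by capillary endothelial cells. It averaged 3905.2 in RXRγ mice against 3484.2 in controls (log2 ratio 0.19). For 1417023_a_at the signals were 4928.4 and 4562.4, and for 1451263_a_at they were 2882.0 and 2406.1. The other 2, 1424155_at and 1425809_at, were between 49.5 and 105.2 on the 2 arrays. Log2 ratios as high as that of Fabp3 were found in 29.1% of all genes, and as high as that of Fabp4 in 30.0%.

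**Figure D2:**
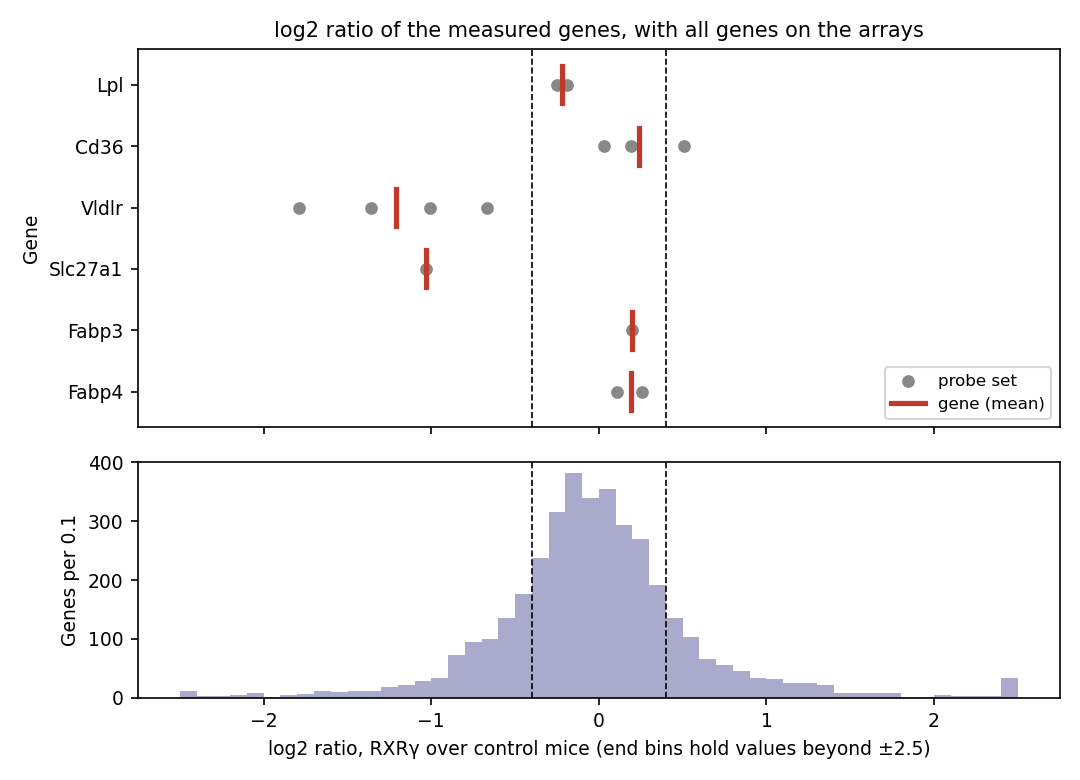
Upper panel, log2 of RXRγ over control signal for the probe sets above 250 (grey points) and for the gene (red bars, the mean of its probe sets). Lower panel, number of all 3780 genes in bins of 0.1 on the same axis; dashed lines mark 0.4 in either direction, and Vldlr (-1.21) and Slc27a1 (-1.03) lie in the left tail while the other 4 genes lie in the central peak.

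Counted as probe sets, 5 of the 13 above 250 were lower by 0.4 (4 of Vldlr and 1 of Slc27a1), beside 20.9% of all probe sets, and 1 was higher (of Cd36), beside 17.2%. The calls for the 6 genes were the same under 3 other scalings of the arrays and with a pseudocount of 32. Over the 12 ways of processing the signals, Vldlr was lower in 12, with log2 ratios from -1.39 to -0.67. Slc27a1 was lower in the 10 that gave it a value, from -1.13 to -0.68. Lpl (-0.32 to -0.16), Cd36 (0.03 to 0.29), Fabp3 (0.10 to 0.28) and Fabp4 (0.09 to 0.29) stayed within the threshold in all 12.

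**Figure D3:**
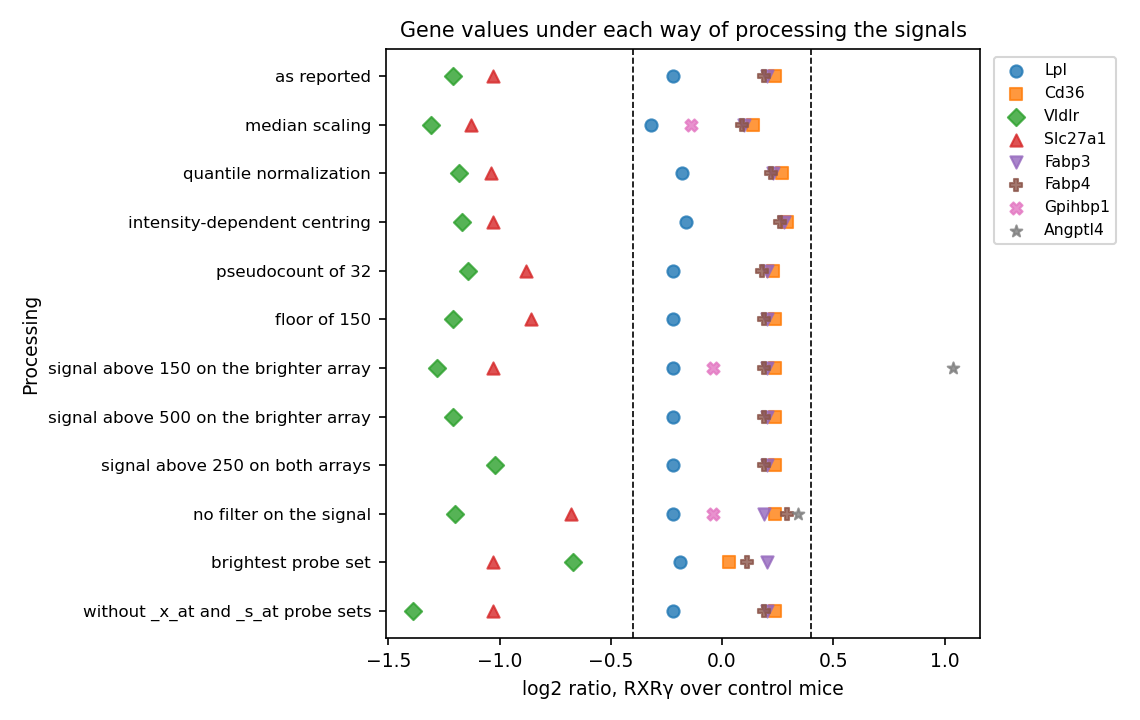
Log2 ratio of RXRγ over control mice of each gene (1 marker per gene) under each of 12 ways of processing the signals, with dashed lines at 0.4 in either direction. Vldlr and Slc27a1 lie left of -0.4 wherever they have a value; Angptl4 passes 0.4 under 1 filter only and Gpihbp1 lies between -0.14 and -0.04 where it has a value.

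Promoter sequence was read for the genes where RefSeq gives a window of 300 bases around the start, 9 windows for Cd36, Fabp3, Vldlr, Slc27a1 and Acsl1 (build GRCm38.p6). Lpl, Gpihbp1, Angptl4 and Fabp4 were not searched. The hexamer AGGTCA, which PPARs and RXRs recognise, was searched on both strands. It was found in 1 of the 9 windows, that of Cd36, and in 16.3% of all 32851 windows. The direct repeat of this hexamer with 1 base between the copies, the arrangement bound by a PPAR with an RXR, was found in none of the 9 and in 0.0396% of all windows. Only exact copies were counted, and looser matches were not searched for. The 250 bases before the start are shown for Cd36, which holds the hexamer, and for the 2 starts of Vldlr, the gene with the largest decrease. All are in the direction of the gene, and capitals mark the hexamer, which lies on the opposite strand in Cd36 and begins 228 bases before the start.
Cd36, chr5:17835897-17836146, strand -: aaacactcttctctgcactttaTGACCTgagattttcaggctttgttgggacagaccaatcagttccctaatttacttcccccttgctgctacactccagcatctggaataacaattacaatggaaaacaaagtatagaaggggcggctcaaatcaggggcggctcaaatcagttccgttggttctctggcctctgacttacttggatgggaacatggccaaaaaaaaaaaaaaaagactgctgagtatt
Vldlr, first start, chr19:27216234-27216483, strand +: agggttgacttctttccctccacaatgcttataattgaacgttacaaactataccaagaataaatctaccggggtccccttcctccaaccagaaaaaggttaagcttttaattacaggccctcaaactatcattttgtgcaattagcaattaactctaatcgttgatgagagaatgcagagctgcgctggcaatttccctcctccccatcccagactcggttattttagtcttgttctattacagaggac
Vldlr, second start, chr19:27216770-27217019, strand +: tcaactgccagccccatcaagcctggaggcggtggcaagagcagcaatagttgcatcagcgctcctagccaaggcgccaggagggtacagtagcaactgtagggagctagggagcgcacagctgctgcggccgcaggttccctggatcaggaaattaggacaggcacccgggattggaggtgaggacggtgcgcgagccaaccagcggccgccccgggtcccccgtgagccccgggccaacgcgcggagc

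Other genes of fatty acid uptake, binding and activation were mostly too dim to measure. Of 79 listed, 73 had a probe set and 18 reached 250; of these 9 were higher in RXRγ mice, none was lower, and the median log2 ratio was 0.37, beside 16.8% higher and a median of -0.04 among all genes. When each array was divided by its median signal, 4 were higher and 2 were lower. Among the acyl-CoA synthetases, which activate fatty acids, Acsl4 averaged 492.0 in RXRγ mice against 227.8 in controls. Its log2 ratio, the mean of 1.73 and 0.94 at the probe sets above 250, was 1.34. Its probe set 1418911_s_at was under 150 in control mice, and with a floor of 150 the log2 ratio was 0.87. Acsl6 had 406.9 against 245.5 (log2 ratio 0.73), and it dropped out where 250 was required on both arrays or 500 on the brighter. The 6 others of the list, Acsl3 and Acsl5 among them, stayed under 250. None of the 4 other fatty acid transport protein genes with a probe set reached 250; the brightest, Slc27a4, had 62.4 in RXRγ mice and 63.9 in control mice.

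Fabp5, the epidermal-type binding protein, was the only other binding protein gene of 13 to reach 250. The 13, like the 79, include the retinoid binding protein genes Rbp2, Rbp4, Rbp7, Crabp1 and Crabp2. Fabp5 was higher in RXRγ mice, with 439.3 against 312.2 in control mice (log2 ratio 0.49). Got2, a mitochondrial aspartate aminotransferase that has also been described as a fatty acid binding protein of the plasma membrane, had a mean of 3123.6 against 1887.0. Its probe sets above 250 had log2 ratios of 0.72 and 0.76. Caveolae are small pits of the plasma membrane in which Cd36 is found. Of their coat genes, Cavin4, which is specific to muscle, was higher (1282.6 against 917.5), while Cav1, Cav2, Cav3, Cavin1 and Cavin2 had log2 ratios from -0.38 to 0.24. The acyl-CoA binding protein gene Dbi (log2 ratio 0.41) and the thioesterase genes Acot9 (0.55) and Acot13 (0.44), whose products release fatty acids from coenzyme A, were higher by small margins. Lrp1, a lipoprotein receptor of the same family as Vldlr, had 266.1 in RXRγ mice and 198.4 in control mice (log2 ratio 0.42). This call was lost under median scaling (0.33), with a pseudocount of 32 (0.37) and where 250 was required on both arrays. Median scaling also took Fabp5 (0.39), Cavin4 (0.39), Dbi (0.31) and Acot13 (0.35) under the threshold. Under the same scaling Cav3 and Cavin2 were called lower (each -0.47).

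**Figure D4:**
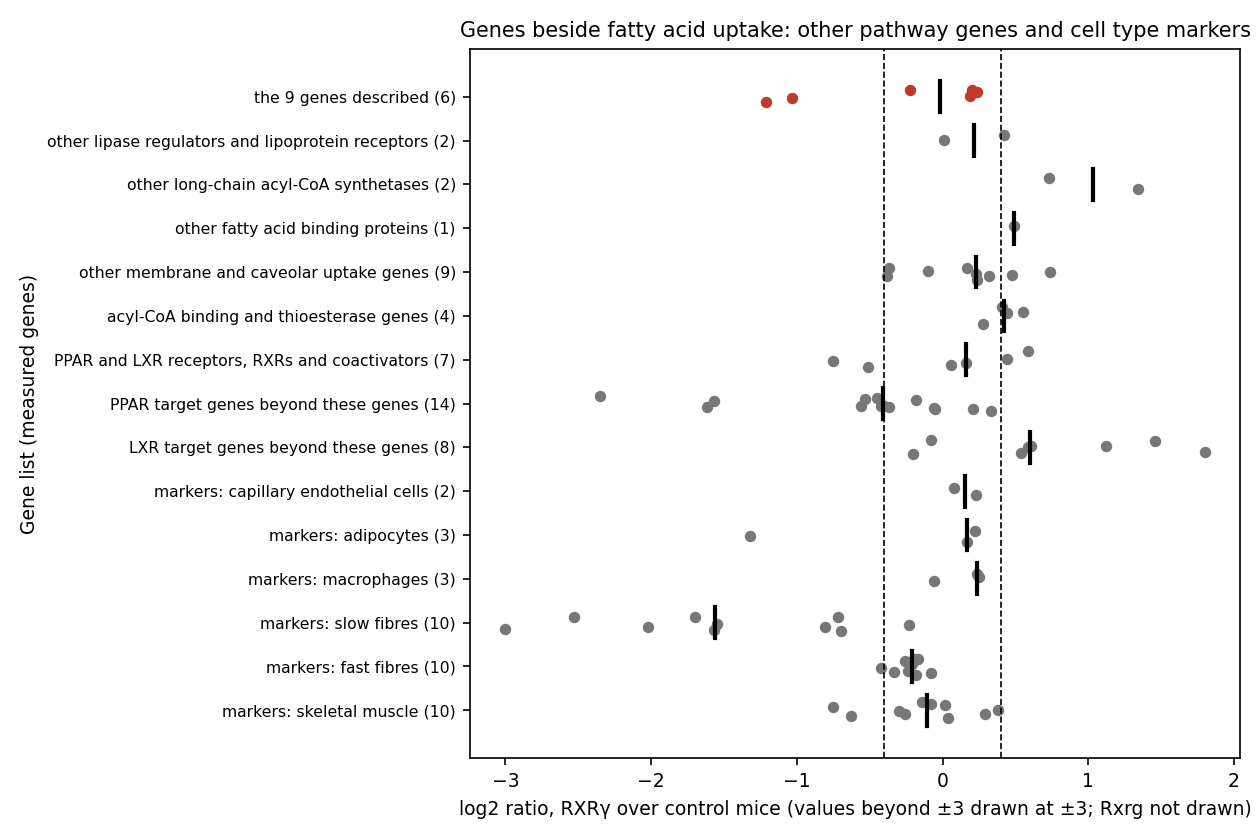
Measured genes of each list by their log2 of RXRγ over control signal (1 point per gene, spread vertically for legibility, number of genes in brackets), with black bars at the list medians and dashed lines at 0.4 in either direction. The 9 other pathway genes called higher lie to the right of the dashed line at 0.4; PPAR target genes and markers of slow fibres lie mostly to the left of 0.

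Of 24 listed genes known as targets of PPARs, beyond those above, 19 had a probe set and 14 were measured. Of these 14, 8 were lower in RXRγ mice and none was higher, beside 20.1% lower and 16.8% higher of all genes. Their median log2 ratio was -0.41. Of the 5 under 250, 1 was dimmer in RXRγ mice and 4 were brighter. Ucp3, a mitochondrial uncoupling protein, averaged 88.5 against 451.4 in controls (log2 ratio -1.59 with a floor of 150, a lower bound of the decrease). Plin4, which coats lipid droplets, had 285.2 against 875.6. Pdk4, a pyruvate dehydrogenase kinase, had a log2 ratio of -1.57. Of the genes of mitochondrial oxidation, Acadvl (log2 ratio -0.56), Acadm (-0.45) and Slc25a20 (-0.53), which encodes the carnitine-acylcarnitine carrier of the inner membrane, were lower. Cpt2 (-0.4) and Decr1 (-0.42) were lower by small margins. Both lost the call under quantile normalization, intensity-dependent centring and a pseudocount of 32. Acadl (0.33), Hadha (-0.18), Hadhb (-0.06) and Etfdh (-0.05) lay within 0.4. After intensity-dependent centring 5 of the 14 were lower and 1, Acadl, was higher. LXR also pairs with RXR and has Lpl among its targets. Of 11 other listed targets of LXR 8 were measured. Of these 6 were higher and none was lower, beside 16.8% and 20.1% of all genes. They were Srebf1 (log2 ratio 1.8), Scd2 (1.46, or 1.27 with a floor of 150), Apod (1.12), Abca1 (0.61), Scd1 (0.59) and Apoe (0.54). Mylip (-0.2) and Pltp (-0.08) lay within 0.4. At a threshold of 1, 3 were higher. Lpl itself had a log2 ratio of -0.22. Both lists hold genes whose values on these arrays were known when the lists were written.

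Muscle tissue holds several cell types that express these genes, and from bulk RNA fewer cells of a type and less RNA per cell cannot be told apart. Markers of slow fibres, in which fatty acid uptake is high, moved with Vldlr and Slc27a1. Of 10 such markers, 9 were lower in RXRγ mice (median log2 ratio -1.56), beside 20.1% of all genes. Their summed signal was 17689.0 against 32355.3 in control mice. Myh2 (5703.3 against 9977.6) and Mb (8746.1 against 10287.4), which are not confined to slow fibres, hold much of that sum. None of the 10 was at 0, and Myl3 (23.2) was the only one under 150 in RXRγ mice. Of 10 fast fibre markers 1, Myh4, was lower, beside 20.1% of all genes, and the median was -0.21. Its log2 ratio of -0.42 averages probe sets at -0.77 and -0.06. Under quantile normalization, intensity-dependent centring or the brightest probe set, 0 of the 10 were lower. The part of fibre types in the differences of Vldlr and Slc27a1 was not tested.

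Capillary endothelial cells make Gpihbp1, Fabp4 and Cd36. Of 19 of their markers with a probe set, 2 reached 250, Aqp1 (log2 ratio 0.08) and Cd34 (0.23), and neither passed the threshold. The summed signal of the 19 was 3634.1 in RXRγ mice and 3712.3 in control mice, and none was at 0. Without Aqp1, the brightest of them, it was 2528.1 and 2668.6. Of the 17 under 250, 12 were dimmer in RXRγ mice and 5 were brighter, and Pecam1, with 138.9 against 206.8, was at least 1.38-fold lower. Adipocytes make Fabp4, Cd36 and Lpl, and of 9 of their markers with a probe set 3 reached 250. Adiponectin (Adipoq) had 1139.5 in RXRγ mice and 1010.4 in control mice, and resistin (Retn) had 333.1 and 285.7, log2 ratios of 0.17 and 0.22. Car3 was lower (log2 ratio -1.32), and muscle fibres express it too. The summed signal of the 9 was 6543.7 against 13087.3, and without Car3, a choice made after its value was seen, 1826.8 against 1670.9; none was at 0. Of 12 macrophage markers 3 reached 250 and none passed the threshold, and their summed signal was 2223.7 against 1932.7, with none at 0. The part of these cells in the values of Fabp4 and Cd36 was not tested.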

How the data were processed

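Each genotype was measured on 1 Affymetrix MG430 array. The deposited intensity values are the authors' probe set signals from the Affymetrix Gene Chip software, a comparison of matched and mismatched oligonucleotides. How they were scaled was not given in the sources used; with 2% of probe sets trimmed from either tail, the mean was 100.0 on both arrays. No deposited value is negative, as an average difference of such oligonucleotides can be, so which version of the algorithm made them, and what the thresholds mean on its scale, is not settled. Present and absent calls were not used here. The platform annotation gives 1 gene for the probe sets that were used (34958 of 45101; 932 name several genes and 9211 are not listed). Log2 ratios were computed without a pseudocount, and the numbers 250, 150 and 0.4 were taken from the study's methods. There they go with present calls, and 0.4 with increases; here they were applied without calls, 0.4 in both directions, and 150 as a floor for folds. The genes, lists and alternatives were chosen with earlier results of these data known. All of the genes described are named with all their probe sets; of the other lists, genes above 250 may be named, those past 0.4 first. Genes named that did not reach 250, and Acadl, Hadha, Hadhb and Etfdh, were chosen after their values were seen. Protein sequences were not compared, although this had been planned. The steps were tested on simulated data. The alternatives, each differing in 1 choice, were scaling to the median, quantile normalization, centring by loess (limma 3.58.1, R 4.3.3, span 0.3), a pseudocount of 32, a floor of 150, signal filters, the brightest probe set, leaving out _x_at and _s_at probe sets, a threshold of 1, and counting probe sets. Ratios and counts were regarded as moved beyond a factor of 1.5. Other steps used Python 3.11.15, pandas 2.3.3, numpy 2.4.6 and matplotlib 3.10.9.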

Additional observations from a re-analysis of the deposited data

How the results depend on the processing

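Under the alternatives run, no called log2 ratio of a measured gene of the group changed sign. The number of the genes called lower, 2, was 1 when the brighter array had to exceed 500 or both 250, by construction, because Slc27a1 no longer passed, and 5 when probe sets were counted. The number called higher, 0, was 1 at a filter of 150 (Angptl4) and 1 when probe sets were counted (1 of Cd36). Of the other uptake, binding and activation genes, 9 higher and none lower became 4 and 2 under median scaling and, with no filter, 33 and 10; 1 was higher at a threshold of 1, and 1 was lower with a signal above 150 or when probe sets were counted. Of the PPAR target genes, 8 lower and none higher became 5 and 1 (Acadl, at 0.4) with intensity-dependent centring, 3 were lower at a threshold of 1, and 1 was higher with no filter. Over all genes, 636 higher and 760 lower became 495 and 1002 under median scaling, which moved the median log2 ratio of all genes from -0.04 to -0.15. They were 371 and 501 above 250 on both arrays, 340 and 438 above 500, 5208 and 4114 with no filter, 191 and 155 at the threshold of 1, 982 and 1028 above 150, and 953 and 1155 for probe sets. No paired analysis was possible because each genotype has 1 array, and for the same reason no replicate could be left out. Signals under 150, as in Slc27a1 and Angptl4, limit what can be said of a fold.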

Other observations

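PPARs and LXRs are partners of RXRs. Ppara (85.0 in RXRγ mice and 117.6 in control mice), Ppard (57.2 and 53.8), Pparg (35.6 and 26.9) and the LXR gene Nr1h3 (80.8 and 86.6) were under 150 on both arrays; Nr1h2, the other LXR gene, was not analysed here. The other RXR genes were lower in RXRγ mice, Rxra at 242.8 against 345.2 (log2 ratio -0.51) and Rxrb at 236.7 against 398.4 (log2 ratio -0.75). The coactivator genes Ncoa1 and Ppargc1a were higher, with log2 ratios of 0.59 and 0.44, and Ncoa2 and Ppargc1b had 0.16 and 0.06. Rxra, Rxrb, Ncoa1 (191.7 in controls) and Ppargc1a (223.8 in controls) averaged under 250 on their dimmer array. Of the 14 genes on this list 7 were measured. With Rxrg counted, which is overexpressed by design, 3 were higher and 2 lower, beside 16.8% and 20.1% of all genes. Where 250 was required on both arrays, 1 was higher and 0 were lower.

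Some genes next to fatty acid uptake lay under the filter of 250. Plin5, a lipid droplet protein of oxidative muscle, gave 32.2 in RXRγ mice against 214.5 in controls and was at least 1.43-fold lower. The thioesterase gene Acot7 had 147.1 and 228.9 and was at least 1.53-fold lower. For Acot2 the signals were 124.6 and 163.8 at its brighter probe set. Its log2 ratio was -0.39 at a filter of 150, within the threshold, and 0.44 with no filter. Those past 150 in RXRγ mice only included Lpcat3, a phospholipid acyltransferase gene known as an LXR target (236.3 against 145.6, at least 1.58-fold higher), Rbp4 (206.0 against 120.9, at least 1.37-fold), Acbd3 (200.2 against 113.3, at least 1.33-fold) and Hspg2 (187.9 against 127.4, at least 1.25-fold), beside Angptl4. Plin2, a lipid droplet protein known as a PPAR target, had 246.4 and 237.6.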
